A study of Mus musculus with 6 samples.

Results

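The opioid and nociceptin receptors are the 4 G protein-coupled receptors encoded by Oprm1 (mu), Oprd1 (delta), Oprk1 (kappa) and Oprl1 (nociceptin). They were picked by gene symbol and not by a cutoff on a measured value, though with earlier results of these data known, Oprl1 among them. They were 4 of the 36528 genes listed for each library. RNA of lumbar dorsal root ganglia, which hold the cell bodies of the sensory neurons, was sequenced from female mice aged 12 to 18 weeks. The CreER-positive group (n = 3) had the genotype Scn9a loxP/loxP with pCAAG.Cre.ER, a Cre recombinase that tamoxifen activates, and the CreER-negative littermates (n = 3) had Scn9a loxP/loxP without it. Both groups therefore carried the floxed allele of Scn9a, the gene of the sodium channel Nav1.7, and the comparison asks whether carrying CreER went with other receptor transcript levels. Each library came from the 6 ganglia of levels L4 to L6 of 1 mouse, so the cells of the ganglion were not separated. The promoter is given as pCAAG and the series calls the knockout global, and a tamoxifen schedule is not given in the sources used here. No group had CreER without the floxed allele, so effects of CreER itself and of Scn9a deletion cannot be told apart.

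All 4 receptors couple to inhibitory G proteins of the Gi/o class. Their activation lowers adenylyl cyclase activity, closes voltage-gated calcium channels and opens inwardly rectifying potassium channels, which reduces transmitter release and firing of nociceptors. Morphine acts mainly through the mu receptor, enkephalins act on the mu and delta receptors, dynorphins prefer the kappa receptor, and nociceptin acts on the Oprl1 product, which binds classical opioids poorly.

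The RefSeq promoters of the receptors are shown because they differ in base composition, and their start sites can be set beside the deposited gene widths. Of the 4 receptors, 3 had an entry in the promoter table (GRCm38.p6), and Oprk1 was not among them. The 250 bases before a start site are printed 5′ to 3′ on the gene's strand, in lower case, with matches on either strand to any of 4 motifs in capitals. TGACGTCA is bound by the factor CREB. AP-1 binds TGANTCA. The TATA box was searched as TATAAA. The GC box, which Sp1 binds, was searched as GGGCGG.
Oprm1, chr10:6788320-6788569, plus strand: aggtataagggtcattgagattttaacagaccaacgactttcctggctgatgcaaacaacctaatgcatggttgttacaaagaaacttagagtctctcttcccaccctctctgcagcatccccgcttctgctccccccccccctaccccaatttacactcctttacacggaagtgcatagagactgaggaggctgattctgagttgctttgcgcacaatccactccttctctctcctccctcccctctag
Oprd1, chr4:132144487-132144736, minus strand: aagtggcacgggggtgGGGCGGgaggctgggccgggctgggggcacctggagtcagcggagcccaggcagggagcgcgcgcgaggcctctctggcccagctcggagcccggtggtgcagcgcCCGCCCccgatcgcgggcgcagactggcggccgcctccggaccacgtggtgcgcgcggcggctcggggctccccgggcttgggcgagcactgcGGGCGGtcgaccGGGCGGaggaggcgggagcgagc
Oprl1, chr2:181714766-181715015, plus strand: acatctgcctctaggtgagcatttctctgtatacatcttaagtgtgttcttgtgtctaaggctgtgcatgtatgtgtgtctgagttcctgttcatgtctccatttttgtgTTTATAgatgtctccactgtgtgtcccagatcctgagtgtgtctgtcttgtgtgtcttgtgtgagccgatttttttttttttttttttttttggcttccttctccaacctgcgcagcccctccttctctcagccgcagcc
The Oprd1 window was 80.0% G or C and held 34 CG dinucleotides, and 2.97% of the 32851 promoters in the table held more. It had 4 matches to GGGCGG, which was found in 32.7% of all promoters. The Oprm1 window was 50.0% G or C with 4 CG dinucleotides and no match to any of the searched motifs. The Oprl1 window was 44.4% G or C with 3 CG dinucleotides and 1 match to TATAAA, on the minus strand, a motif in 12.4% of all promoters. Oprl1 and Oprm1 each had 3 RefSeq starts, and 1 window of each is printed. The windows of the other Oprl1 starts were 54.8% and 48.8% G or C, with 1 and 2 CG dinucleotides and no match to the motifs. The median promoter held 6 CG dinucleotides and 52.4% G or C. TGACGTCA was in 1.55% and TGANTCA in 6.75% of all promoters, and in none of the 3 printed windows, which says nothing of whether the factors bind these genes. From the Oprl1 start that follows the printed window, 5970 bases lead to the gene's end, which equals the deposited width. The Oprm1 start that follows its window lies 249640 bases from the gene's end, close to the deposited width of 249699, and a further RefSeq start upstream lies 279617 bases from it. The Oprd1 start lies 34299 bases from the gene's end, more than the deposited width of 33761.

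Total counts ranged from 40237131 to 63332040 per library. Scn9a itself had 586.1 ± 29.6 CPM (counts scaled to library size with TMM factors) in CreER-positive ganglia and 601.1 ± 39.9 CPM in CreER-negative ganglia (SD, n = 3 each), a log2 fold change of -0.04 (edgeR adjusted p = 0.918). Counts appeared to include introns and the position of the loxP sites was not used here, so the value does not check the deletion. The 10 pan-neuronal markers summed to 7294 to 8725 CPM in CreER-positive ganglia and 7286 to 8051 CPM in CreER-negative ganglia, and all 10 were above 1 CPM. CreER-negative replicate 2 stood apart by skeletal muscle genes, which summed to 48.6 CPM there, and CreER-positive replicate 3 by genes of some non-neuronal cells. In CreER-positive replicate 3 these summed to 1228 CPM for fibroblasts, 1345 CPM for satellite glia, 85.6 CPM for macrophages and 67.8 CPM for endothelium, each the highest of the 6 libraries. Of the satellite glia genes, Fabp7 had 375 CPM there, against 127 to 185 CPM in the other libraries. Schwann cell and spinal cord glia markers were highest in CreER-positive replicate 2, at 2640 and 13.5 CPM, against 2446 and 10.1 CPM in CreER-positive replicate 3. The receptor values are also given without CreER-negative replicate 2 and CreER-positive replicate 3.

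All 4 receptors were detected in every library, and none of the 4 passed edgeR's quasi-likelihood test at an adjusted p of 0.05, against 0.726% of the 22043 genes tested. Oprl1 was the receptor with the widest separation: it was higher in all 3 CreER-positive libraries than in any CreER-negative library, by a fold of 1.28. Oprm1, Oprd1 and Oprk1 overlapped between the groups, with folds of 1.08, 0.878 and 0.855. At an unadjusted p of 0.05 the receptors' count was 1 of 4, against 10.6% of all tested genes, and DESeq2 called 1 of 4, against 2.31% of the genes it gave an adjusted p. The median log2 fold change was -0.04 over the 4 receptors and 0.00 over all tested genes. In whole ganglia, fewer cells that express a receptor and less receptor RNA per cell cannot be told apart.

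**Figure D1:**
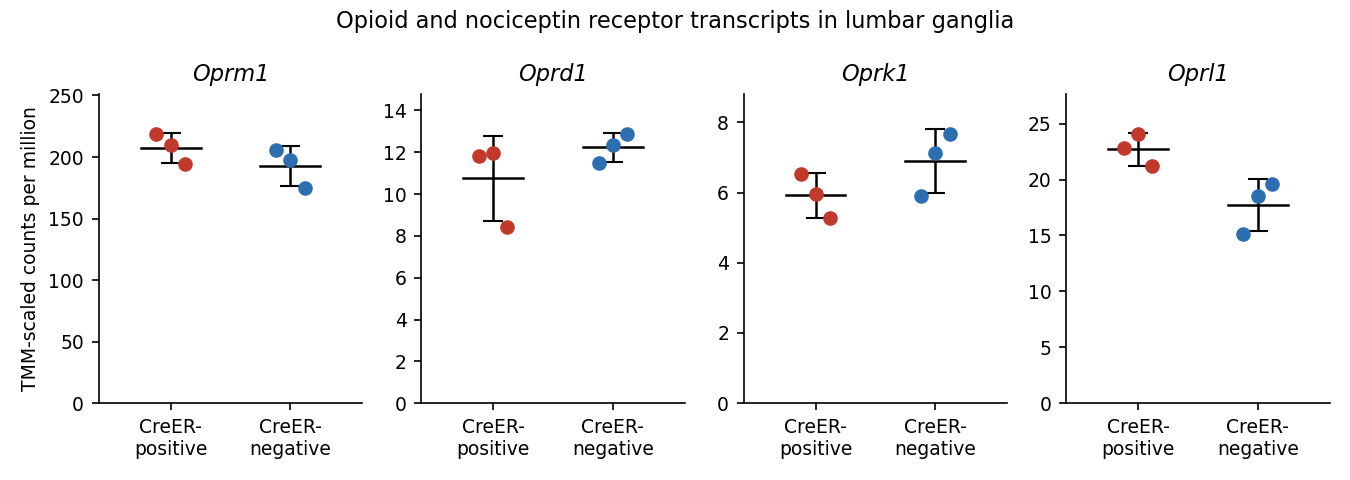
TMM-scaled CPM of the 4 receptor genes in each library (points), with the group mean (long bar) and SD (error bar), n = 3 libraries per group, on linear axes that start at 0. Oprl1 lay between 21.2 and 24.1 CPM in CreER-positive ganglia and between 15.1 and 19.6 CPM in CreER-negative ganglia, and the other 3 receptors overlapped between groups.

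Oprm1 (NCBI gene 18390, chromosome 10, 6758593 to 7038209 on the plus strand in GRCm38.p6) encodes the mu receptor, the main target of morphine. It had 219, 210 and 195 CPM in CreER-positive replicates 1 to 3, against 206, 197 and 175 CPM in CreER-negative replicates 1 to 3. The highest library was CreER-positive and the lowest was CreER-negative, and the groups overlapped. The means were 207.6 ± 12.2 CPM in CreER-positive ganglia and 192.5 ± 16.0 CPM in CreER-negative ganglia (SD, n = 3 each). The log2 fold change was 0.11 ± 0.07 (SE), with a 95% interval from -0.06 to 0.28 and an edgeR adjusted p of 0.683. On the linear scale that interval runs from 0.960-fold to 1.21-fold. Oprm1 was counted with between 8356 and 13121 reads per library, by far the most of the 4, so counting error was 0.914% of the mean in CreER-positive and 1.003% in CreER-negative ganglia. The coefficient of variation between mice was 5.89% in CreER-positive and 8.33% in CreER-negative ganglia, well above that counting error.

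Oprm1 shares 152431 bases with Ipcef1, a gene on the opposite strand that encodes a protein interacting with cytohesin exchange factors. The strand setting of the counting is not given in the sources used here, so reads of the pair cannot be told apart in the shared stretch. Ipcef1 had 249, 219 and 210 counts in CreER-positive libraries, against 181, 279 and 282 counts in CreER-negative libraries. These were 1.90%, 1.70% and 2.03% of the Oprm1 counts in CreER-positive libraries and 2.17%, 2.55% and 2.55% in CreER-negative libraries. Scaled to library size, Ipcef1 had 4.15, 3.56 and 3.95 CPM in CreER-positive replicates, against 4.45, 5.04 and 4.46 CPM in CreER-negative replicates, without overlap. Its log2 fold change was -0.26 (edgeR adjusted p = 0.447). Ipcef1 thus stood at a small share of Oprm1 in all 6 libraries, and the other 3 receptors share no base with an annotated gene.

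Oprd1 (NCBI gene 18386, chromosome 4, 132110188 to 132144486 on the minus strand) encodes the delta receptor, which binds enkephalins. It had 11.8, 12.0 and 8.42 CPM in CreER-positive replicates 1 to 3, against 11.5, 12.3 and 12.9 CPM in CreER-negative replicates 1 to 3. CreER-positive replicate 3 was the lowest of the 6 libraries, and the other 2 CreER-positive libraries lay within the CreER-negative range. The means were 10.7 ± 2.02 CPM in CreER-positive ganglia and 12.2 ± 0.700 CPM in CreER-negative ganglia (SD, n = 3 each). The log2 fold change was -0.19 ± 0.13 (SE), with a 95% interval from -0.48 to 0.10 and an edgeR adjusted p of 0.683. Without CreER-positive replicate 3 it was -0.04. The coefficient of variation was 18.8% in CreER-positive and 5.72% in CreER-negative ganglia, and that of the CreER-positive mice was the highest of any receptor in either group. CreER-positive replicate 3 is the library with the high fibroblast, satellite glia, macrophage and endothelial genes, whose part in its low Oprd1 level was not tested.

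Oprk1 (NCBI gene 18387, chromosome 1, 5588450 to 5606134 on the plus strand) encodes the kappa receptor, the target of dynorphins. It had 6.54, 5.97 and 5.26 CPM in CreER-positive replicates 1 to 3, against 5.90, 7.13 and 7.67 CPM in CreER-negative replicates 1 to 3. The 2 highest libraries were CreER-negative, and CreER-negative replicate 1 lay within the CreER-positive range. The means were 5.92 ± 0.638 CPM in CreER-positive ganglia and 6.90 ± 0.906 CPM in CreER-negative ganglia (SD, n = 3 each). The log2 fold change was -0.23 ± 0.12 (SE), with a 95% interval from -0.50 to 0.05 and an edgeR adjusted p of 0.585. Oprk1 had the fewest counts of the 4, between 240 and 485 per library, and counting error alone was 5.43% of the mean in CreER-positive and 5.40% in CreER-negative ganglia.

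Oprl1 (NCBI gene 18389, chromosome 2, 181715000 to 181720985 on the plus strand) encodes the receptor of nociceptin. It had 22.9, 24.1 and 21.2 CPM in CreER-positive replicates 1 to 3, against 15.1, 18.5 and 19.6 CPM in CreER-negative replicates 1 to 3. All 3 CreER-positive libraries were above all 3 CreER-negative libraries, a separation in this direction that 6.63% of all tested genes showed. The means were 22.7 ± 1.46 CPM in CreER-positive ganglia and 17.7 ± 2.33 CPM in CreER-negative ganglia (SD, n = 3 each). The log2 fold change was 0.35 ± 0.10 (SE), with a 95% interval from 0.14 to 0.57, or 1.10-fold to 1.49-fold. Its edgeR p was 0.00507 before and 0.207 after adjustment, while DESeq2 gave an adjusted p of 0.0462, and over the 17 alternatives the adjusted p ranged from 0.0462 to 0.542. Among all tested genes, 9.54% had a larger absolute log2 fold change. Without CreER-negative replicate 1, the lowest library, the Oprl1 log2 fold change was 0.25 (edgeR adjusted p = 0.525).

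**Figure D2:**
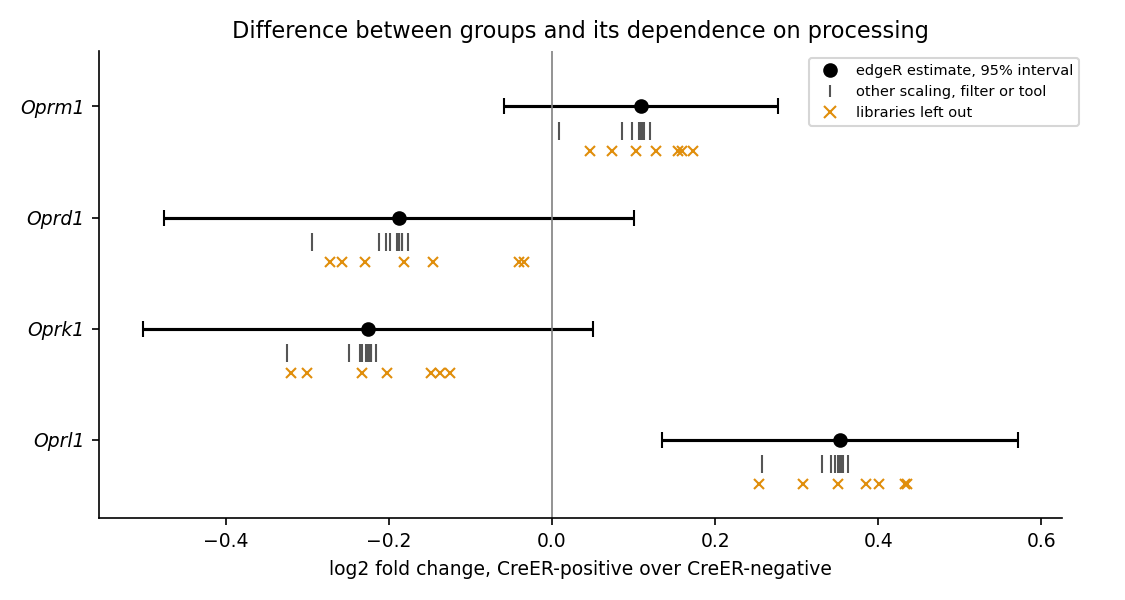
Log2 fold change of each receptor, CreER-positive over CreER-negative, from edgeR with its 95% interval (black), with values under other scalings, filters or tools (grey ticks) and with libraries left out (orange crosses). The Oprl1 interval, 0.14 to 0.57, lies above 0, the other 3 include 0, and no receptor changed direction under any of the alternatives.

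Markers of 2 classes of sensory neuron, the non-peptidergic nociceptors and the C-fibre low-threshold mechanoreceptors, included genes that were lower in CreER-positive ganglia. Summed markers of peptidergic nociceptors were 2560 to 2742 CPM in CreER-positive ganglia and 2106 to 2405 CPM in CreER-negative ganglia. Summed markers of non-peptidergic nociceptors were 1348 to 1497 CPM in CreER-positive ganglia and 1643 to 1708 CPM in CreER-negative ganglia, and those of C-fibre low-threshold mechanoreceptors were 175 to 219 CPM in CreER-positive and 288 to 291 CPM in CreER-negative ganglia. None of these sums overlapped between groups, nor did 15.9% of all tested genes taken singly. Of their genes, edgeR called 0 of 7 peptidergic (DESeq2 called 1, and 4 had an unadjusted p under 0.05), 2 of 6 non-peptidergic and 4 of 5 mechanoreceptor markers, the ones edgeR called all lower in CreER-positive ganglia. Over all tested genes edgeR called 0.726% and 10.6% had an unadjusted p under 0.05. DESeq2 called 2.31% of the genes it gave an adjusted p. Log2 fold changes were positive for 5 and negative for 2 peptidergic markers, positive for 1 and negative for 5 non-peptidergic markers, and negative for all 5 mechanoreceptor markers. The positive non-peptidergic marker was P2rx3, at 0.08. The part of these neuron classes in the receptor values was not tested. Scaling the libraries by the pan-neuronal markers in place of TMM gave log2 fold changes of 0.01 for Oprm1, -0.29 for Oprd1, -0.32 for Oprk1 and 0.26 for Oprl1. Some of these 10 markers differed between the groups themselves, with 5 positive and 5 negative log2 fold changes. An unadjusted p under 0.05 by edgeR was found for 3 of them: Tubb3 at 0.31, Isl2 at -0.42 and Isl1 at -0.12. After adjustment edgeR called 0 and DESeq2 called 1, Isl2. Without CreER-positive replicate 3 and CreER-negative replicate 2, the libraries with high non-neuronal or muscle genes, the values were 0.17 for Oprm1, -0.03 for Oprd1, -0.12 for Oprk1 and 0.43 for Oprl1, and none passed the edgeR test.

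Ratios between receptors within a library need no scaling, and 6 were compared. The Oprk1 to Oprl1 count ratio was 0.286, 0.248 and 0.249 in CreER-positive replicates 1 to 3, against 0.391, 0.386 and 0.392 in CreER-negative replicates 1 to 3. The CreER-negative ratios were all above the CreER-positive ones. They lay closer together than counting error, which was 5.40% of the mean for Oprk1 and 3.37% for Oprl1 in CreER-negative ganglia. Their narrow range is therefore no measure of the spread between mice. The difference of mean log2 ratios was -0.58, with means of -1.94 ± 0.118 in CreER-positive ganglia and -1.36 ± 0.0120 in CreER-negative ganglia (SD, n = 3 each), with an exact two-sided permutation p of 0.1. The Oprd1 to Oprl1 ratio was 0.518, 0.497 and 0.398 in CreER-positive replicates, against 0.760, 0.667 and 0.657 in CreER-negative replicates, again without overlap. Its log2 difference was -0.57, with an exact permutation p of 0.1. With 3 libraries a group, 0.1 is the smallest p this test can give, and it is 0.3 for both ratios after Benjamini-Hochberg adjustment over the 6. The other ratios overlapped: Oprm1 to Oprd1 differed by 0.32 and Oprm1 to Oprk1 by 0.33 (exact permutation p = 0.2 for each), Oprm1 to Oprl1 by -0.25 (exact permutation p = 0.3) and Oprd1 to Oprk1 by 0.01 (exact permutation p = 1).

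**Figure D3:**
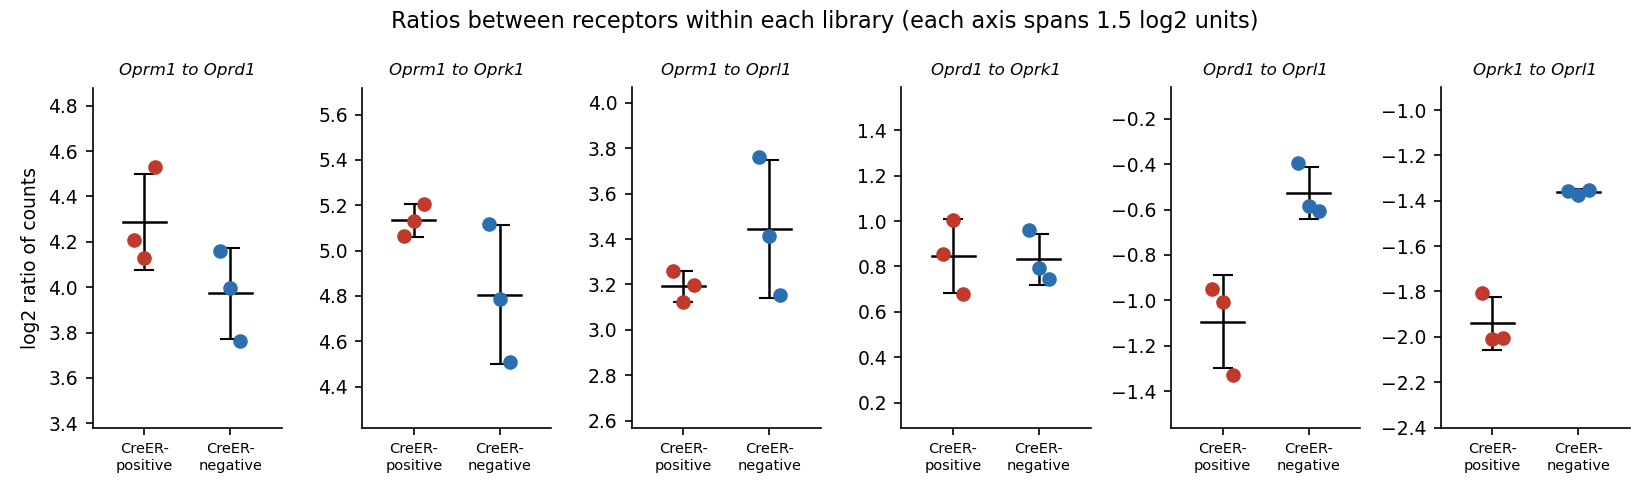
Log2 ratio of the counts of each receptor pair in each library (points), with the group mean and SD, n = 3 per group, every axis spanning the same range of log2 units. The Oprk1 to Oprl1 and Oprd1 to Oprl1 ratios of the CreER-positive libraries lie below all CreER-negative ones, and the other 4 pairs overlap.

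Oprd1 and Oprk1 varied together between libraries, with a Pearson r of 0.83 and a Spearman rho of 0.94 of log2 CPM over the 6 libraries. Every other pair had an r between -0.45 and 0.23. These are descriptions of 6 libraries that share the 2 groups and their scaling. Genes that followed a receptor more closely than any other did were, for Oprm1, Snrnp35 (r = 0.979) and Gm8069 (0.973); for Oprd1, Kif21a (0.998) and Map2k4 (0.997); for Oprk1, Ankfy1 (0.979) and Mical2 (0.979); and for Oprl1, Mast4 (0.999) and H1f10 (0.998). These were picked from 16300 genes, of which 208 had an r above 0.95 with Oprd1, 107 with Oprl1, 21 with Oprk1 and 3 with Oprm1.

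The order of the receptors' levels depended on the length used. Per kilobase of deposited width, Oprl1 was highest in 6 of 6 libraries, with 3.80 ± 0.244 CPM per kb in CreER-positive and 2.97 ± 0.390 CPM per kb in CreER-negative ganglia. Oprm1 followed with 0.832 ± 0.0490 CPM per kb in CreER-positive and 0.771 ± 0.0642 CPM per kb in CreER-negative ganglia. Oprk1 had 0.335 ± 0.0361 CPM per kb in CreER-positive and 0.390 ± 0.0512 CPM per kb in CreER-negative ganglia, and Oprd1 had 0.318 ± 0.0597 CPM per kb in CreER-positive and 0.362 ± 0.0207 CPM per kb in CreER-negative ganglia (SD, n = 3 each). Oprk1 and Oprd1 did not differ beyond their spread, Oprk1 being the higher of the pair in 4 libraries and Oprd1 in 2. Per kilobase of the union of annotated exons, Oprm1 came first in 6 of 6 libraries, with 25.8 CPM per kb in CreER-positive and 24.0 CPM per kb in CreER-negative ganglia, ahead of Oprl1 with 6.05 and 4.73, Oprd1 with 2.67 and 3.04 and Oprk1 with 0.647 and 0.754 CPM per kb in the same groups. Counts appeared to cover introns: for 32 of 32 genes nested in an intron of a gene on the opposite strand, and 34 of 34 on the same strand, the host was counted with at least the reads of the nested gene. The opposite-strand pairs had 31 different hosts and the same-strand pairs 14, and 21 same-strand pairs lay in Gm37013. Among 29 Gi/o-coupled receptors tested, Oprl1 ranked 5th, Oprm1 14th, Oprk1 18th and Oprd1 19th per kilobase of deposited width, and Gabbr1, a subunit of the GABA-B receptor, was first. This ranking too depends on the length, and the union of exons was not used for it. Before division by a length, Gabbr1 had 397 CPM and Oprm1 200 CPM, the highest means of these receptors, and Oprl1 had 20.2 CPM.

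**Figure D4:**
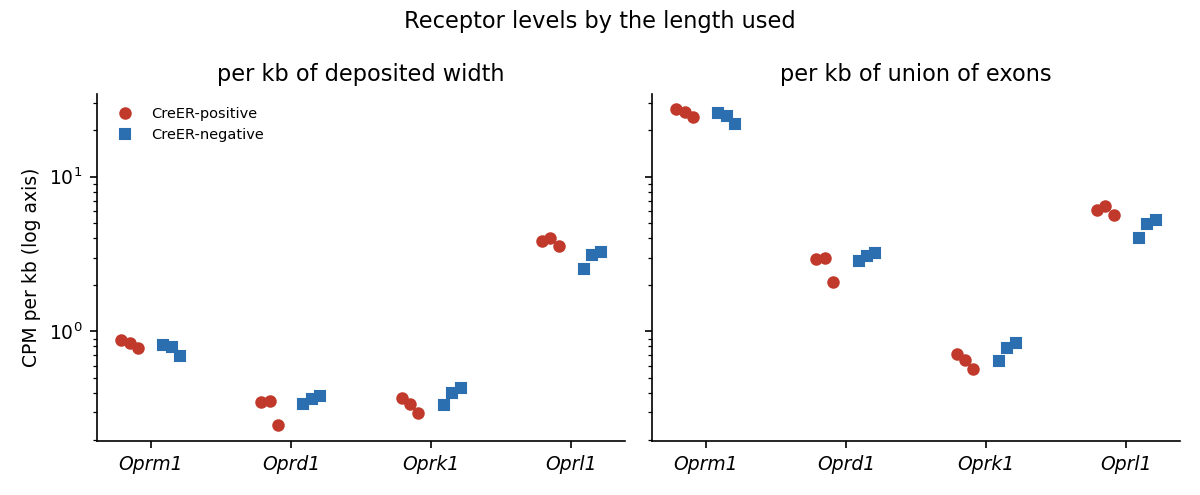
Receptor level in each library as CPM per kb of the deposited width (left) and per kb of the union of annotated exons (right), on log axes, with CreER-positive libraries as circles and CreER-negative libraries as squares. Oprl1 is highest by the first length and Oprm1 by the second, in 6 of 6 libraries each.

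The pathway around the receptors was described with 9 lists of 100 genes, of which 96 were tested. The lists were drawn up with earlier results of these data known, Penk among them. The shares below therefore describe the lists and are no independent support for a change in the pathway. Of these, 8 were called by edgeR (8.33%, against 0.726% of all tested genes), 2 higher and 6 lower in CreER-positive ganglia, against 0.163% higher and 0.563% lower of all tested genes. DESeq2 called 13. The groups did not overlap for 22.9% of the 96 genes, 8 of them higher and 14 lower in CreER-positive ganglia, against 15.9% of all tested genes, or 6.63% higher and 9.31% lower. Over the lists 44 genes had a positive and 52 a negative log2 fold change, with a median of -0.01, against 0.00 over all tested genes. The called genes were in 5 lists: precursors, beta and gamma subunits, receptor kinases, effectors and RGS proteins. The same shares of all tested genes are the background for the counts of each list.

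Among the 4 opioid peptide precursors, Penk, the precursor of the enkephalins, was higher in CreER-positive ganglia. It had 9.84, 12.0 and 18.4 CPM in CreER-positive replicates, against 4.94, 4.37 and 4.68 CPM in CreER-negative replicates, with a log2 fold change of 1.52 ± 0.20 (SE; edgeR adjusted p = 0.00953). The groups did not overlap. The adjusted p was 0.0741 without CreER-negative replicate 2 and 0.0667 without CreER-negative replicate 3. Pnoc, the precursor of nociceptin, had 0.73, 0.96 and 0.70 CPM in CreER-positive replicates, against 0.91, 0.47 and 0.51 CPM in CreER-negative replicates. Pnoc thus stayed under 1 CPM in all 6 libraries, as did the means of Pdyn and Pomc, and its log2 fold change of 0.41 did not pass (edgeR adjusted p = 0.680) and ranged from 0.24 to 0.71 with 1 library left out. The ligand gene Penk and the receptors that bind its peptides, Oprm1 and Oprd1, had log2 fold changes of 1.52, 0.11 and -0.19.

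Of the Gi/o alpha subunits, which carry the signal from the receptor, edgeR called 0 of 5, DESeq2 called 0, and 1 had an unadjusted p under 0.05. Gnai2 had a log2 fold change of 0.14 (adjusted p = 0.444) and Gnai1 one of 0.07 (0.814) by edgeR. Of 15 beta and gamma subunits 1 was called: Gng4, a gamma subunit, was lower, with 8.03 ± 0.830 CPM in CreER-positive and 12.9 ± 0.994 CPM in CreER-negative ganglia (SD, n = 3 each; log2 fold change -0.68, edgeR adjusted p = 0.0142). The adjusted p of Gng4 was 0.0731, 0.0673 and 0.0555 without CreER-negative replicate 1, 2 or 3. Gnb3, a beta subunit, had a log2 fold change of -0.62 with an edgeR adjusted p of 0.0898, and DESeq2 gave 0.0323.

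Grk3, a kinase that phosphorylates active receptors and so promotes their desensitisation, was the 1 gene called of 7 receptor kinases and arrestins. It was lower, with 31.4 ± 2.03 CPM in CreER-positive and 43.8 ± 1.74 CPM in CreER-negative ganglia (SD, n = 3 each; log2 fold change -0.48, edgeR adjusted p = 0.00866). Its adjusted p was 0.0581 without CreER-negative replicate 1 and 0.0741 without CreER-negative replicate 2. The related kinase Grk2 had a log2 fold change of -0.14 and did not pass (edgeR adjusted p = 0.523).

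Among 14 tested effectors, 1 was lower and 1 higher. Kcnj6, which encodes the potassium channel subunit GIRK2 that the beta and gamma subunits open, had 3.02, 2.34 and 1.75 CPM in CreER-positive replicates, against 6.47, 5.31 and 4.40 CPM in CreER-negative replicates. The groups did not overlap, and the log2 fold change was -1.17 (edgeR adjusted p = 0.0393). This call was lost without CreER-negative replicate 1, 2 or 3 (adjusted p = 0.167, 0.174 and 0.0667) or CreER-positive replicate 2 (0.102). Adcy8, an adenylyl cyclase, had 16.8 ± 1.01 CPM in CreER-positive and 10.9 ± 1.32 CPM in CreER-negative ganglia (SD, n = 3 each; log2 fold change 0.63, edgeR adjusted p = 0.0202). Without CreER-negative replicate 1, 2 or 3 or CreER-positive replicate 2 its adjusted p was 0.0547, 0.0845, 0.0555 and 0.0565, and it was 0.126 with pan-neuronal scaling.

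RGS proteins speed the shutdown of G protein signalling, and 3 of 17 were called, all lower in CreER-positive ganglia, against 0.563% of all tested genes called lower. Rgs8 had 42.9, 39.1 and 29.4 CPM in CreER-positive replicates, against 76.2, 81.5 and 77.1 CPM in CreER-negative replicates, with a log2 fold change of -1.08 (edgeR adjusted p = 0.00367). All 3 CreER-positive libraries lay far below the CreER-negative ones, and Rgs8 was called under all 17 alternatives. Rgs5 averaged 110.5 ± 5.83 CPM in CreER-positive and 147.3 ± 10.5 CPM in CreER-negative ganglia, and Rgs10 averaged 143.4 ± 6.87 CPM in CreER-positive and 186.6 ± 10.2 CPM in CreER-negative ganglia (SD, n = 3 each), both with an edgeR adjusted p of 0.0293. Rgs5 lost its call without CreER-negative replicate 1, 2 or 3 (adjusted p = 0.161, 0.171 and 0.0536) or CreER-positive replicate 1 or 2 (0.0557 and 0.0778). Rgs10 lost it without the same libraries (0.171, 0.128, 0.0935, 0.0512 and 0.0936). With pan-neuronal scaling the adjusted p of Rgs10 was 0.0803. Over the 17 alternatives the call was lost in 6 for Rgs5 and in 7 for Rgs10. Of the 17 RGS genes, 7 had a positive and 10 a negative log2 fold change, with a median of -0.02. Groups did not overlap for 2 that were higher and 5 that were lower, against 6.63% higher and 9.31% lower of all tested genes. The most abundant by CPM was Rgs4, chosen here after its values were seen. It had 1243 ± 79.6 CPM in CreER-positive and 1582 ± 46.6 CPM in CreER-negative ganglia (SD, n = 3 each), without overlap. Its log2 fold change was -0.35, with an adjusted p of 0.174 by edgeR and 5.48e-05 by DESeq2. Rgs3 was at -0.43, with an adjusted p of 0.0524 by edgeR and 0.000219 by DESeq2. In all, DESeq2 called 6 of the 17 RGS genes, against 2.31% of the genes it gave an adjusted p. By edgeR, 7 had an unadjusted p under 0.05, against 10.6% of all tested genes.

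Partners, peptidases and related receptors did not pass. Of 5 trafficking and binding partners edgeR called 0 (DESeq2 0, with 1 at an unadjusted p under 0.05): Wls, a membrane protein that binds the mu receptor, had a log2 fold change of 0.19 (edgeR adjusted p = 0.223), and Rtp4, a chaperone of mu and delta receptor pairs, one of -0.21 (0.702), which ranged from -0.34 to -0.02 with 1 library left out. Of 4 peptidases that break down enkephalins edgeR called 0 (DESeq2 0, and none at an unadjusted p under 0.05), and all 4 values were positive, among them Ace at 0.18 (adjusted p = 0.634) and Anpep at 0.17 (0.846), though Anpep was at -0.13 without CreER-positive replicate 3. Of 25 tested other Gi/o-coupled receptors edgeR called 0, with 2 at an unadjusted p under 0.05, and DESeq2 called 1. That gene was Sstr4, a somatostatin receptor, with 0.984 ± 0.193 CPM in CreER-positive and 1.78 ± 0.101 CPM in CreER-negative ganglia (SD, n = 3 each), a log2 fold change of -0.84 and adjusted p of 0.0790 by edgeR and 0.0304 by DESeq2. Chrm4, a muscarinic receptor, had a log2 fold change of -0.42 (edgeR adjusted p = 0.240). The group had 9 positive and 16 negative values and a median log2 fold change of -0.04, and the median of the 4 opioid and nociceptin receptors was also -0.04. The sums of non-peptidergic and mechanoreceptor markers given above were also lower in CreER-positive ganglia, and the part of these neuron classes in the pathway values was not tested.

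**Figure D5:**
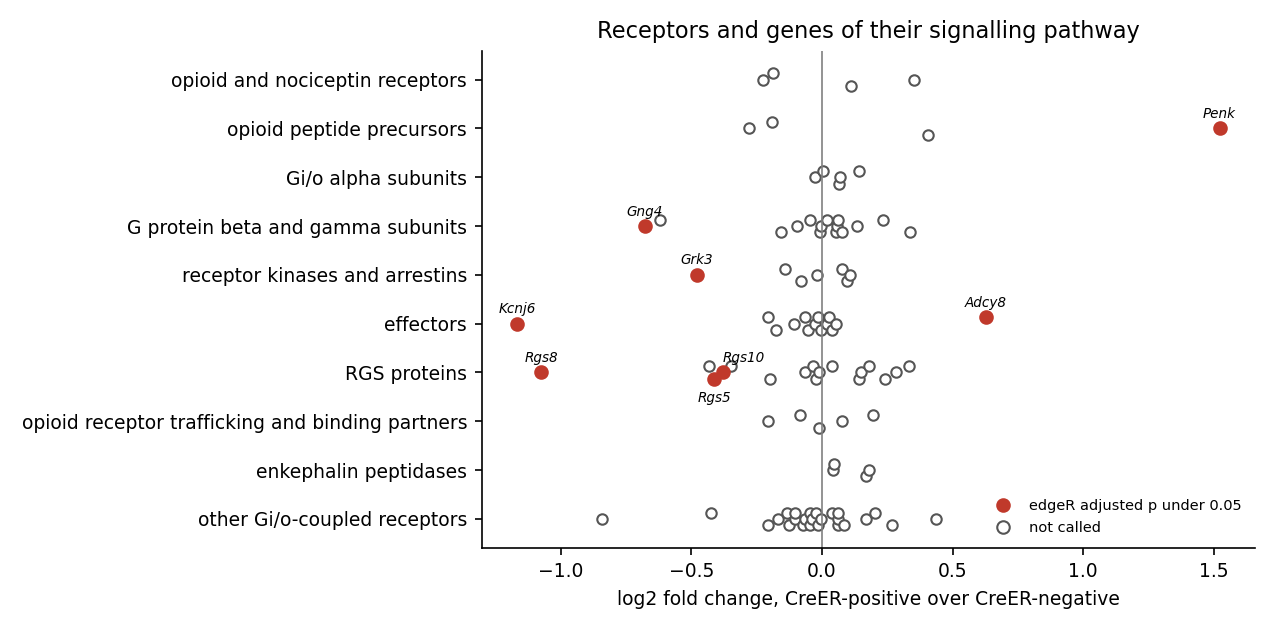
Log2 fold change, CreER-positive over CreER-negative, of the 4 receptors (top row) and of the genes in the 9 pathway lists, 1 point per tested gene, filled where edgeR's adjusted p was under 0.05. The 8 filled genes are Penk and Adcy8 above 0 and Gng4, Grk3, Kcnj6, Rgs8, Rgs5 and Rgs10 below 0, and no receptor is filled.

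Genes next to the receptors were examined within 200 kb. Oprl1 had 16 annotated neighbours, Oprd1 19, Oprm1 2 and Oprk1 none. Of the tested ones, edgeR called 0 of 14 around Oprl1, 0 of 15 around Oprd1 and 0 of 2 around Oprm1, with 3, 1 and 1 at an unadjusted p under 0.05. DESeq2 called 1, 0 and 0. The 1 gene was Rgs19, an RGS regulator that lies 20463 bases from Oprl1. Rgs19 had 12.4, 13.9 and 12.7 CPM in CreER-positive replicates, against 10.2, 9.97 and 10.8 CPM in CreER-negative replicates, so the groups did not overlap. Its log2 fold change was 0.33 ± 0.08 (SE), with an adjusted p of 0.117 by edgeR and 0.0432 by DESeq2. Myt1, a zinc finger transcription factor 42347 bases from Oprl1, was also without overlap at 0.19 (edgeR adjusted p = 0.239). Uckl1, a uridine kinase-like gene 132973 bases from Oprl1, and Zfp512b, a zinc finger gene 122028 bases from it, were without overlap in the other direction, at -0.13 (0.453) and -0.08 (0.647). Groups thus did not overlap for 4 of the 14 tested neighbours of Oprl1, 5 of 15 of Oprd1 and 1 of 2 of Oprm1, which was Ipcef1, against 15.9% of all tested genes. Snhg12, a small nucleolar RNA host gene near Oprd1, had 0.20 (0.404), and Cnksr3, a scaffold protein gene near Oprm1, had -0.07 (0.881). The neighbours of Oprd1 without overlap included Snhg12 and also Snora16a and Snora44, small RNA genes that lie within it. Counts of Snhg12, Snora16a and Snora44 may therefore share reads. Snora16a and Snora44 had only 9 to 27 reads per library.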

How the data were processed

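In all, 6 bulk RNA libraries were analysed, grouped by the genotype label (3 CreER-positive, 3 CreER-negative). Reads were aligned with GSNAP to GRCm38 (mm10), per the submitters' processing notes, while no counting tool, annotation release or strand setting is given in the sources used here. Each table holds what the authors deposited per gene, per the file headers: raw count, gene width and RPKM. The deposited count sums to 40237131 to 63332040 per library, 1.46% to 2.17% above the total implied by the deposited RPKM, so part of the reads may have been assigned to several genes. The deposited RPKM was not tested, and the deposited width, an authors' length in bases, served for levels per kilobase. Of 36528 identifiers, 31049 matched a RefSeq symbol (GRCm38.p6), and 1.91% of counts had none. The 4 receptors were all among the 22043 genes left by edgeR's filterByExpr.

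Counts were tested with edgeR 4.0.16 (R 4.3.3; TMM factors, quasi-likelihood, common biological coefficient of variation 8.99%) with Benjamini-Hochberg adjustment over all tested genes at 0.05. Ratios of counts (0.5 added to each) were tested by exact permutation. Alternatives were DESeq2 1.42.0, limma-voom 3.58.1, other scalings and filters, robust and legacy quasi-likelihood settings, and leaving out libraries. The legacy setting was chosen after seeing the data. The edgeR step was tested on simulated data, where it recovered 78% of genes changed 1.5-fold and 95% of those changed 2-fold. Of its 185 calls there, 12 were false. The simulation held no libraries that stood apart, as CreER-positive replicate 3 and CreER-negative replicate 2 did here. Figures were drawn with matplotlib 3.10.9. Named genes were the receptors, in each list the called genes and the 2 with the smallest unadjusted p, the 2 genes most like each receptor among those averaging 1 CPM or more, and genes within 200 kb, given by counts with a few named after their values were seen. The members, lists and libraries left out together were chosen with earlier results of these data known, Penk and Oprl1 among them, so their values are no independent support.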

Additional observations from a re-analysis of the deposited data

How the results depend on the processing

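Over 17 alternatives no receptor changed direction. The log2 fold changes ranged from 0.01 to 0.17 for Oprm1, -0.29 to -0.03 for Oprd1, -0.32 to -0.12 for Oprk1 and 0.25 to 0.43 for Oprl1. With single libraries left out they were 0.05 to 0.16, -0.27 to -0.04, -0.32 to -0.14 and 0.25 to 0.43. The call of Oprl1 was gained with DESeq2 alone (log2 fold change 0.36). Genes called over the whole table numbered 160, against 430 with DESeq2 and 60 to 568 with 1 library left out: 71, 60 and 73 without CreER-negative replicate 1, 2 or 3, and 568 without CreER-positive replicate 3. Pathway genes called numbered 8, against 13 with DESeq2, 1 to 10 with 1 library left out, and 2 without CreER-negative replicate 2 and CreER-positive replicate 3 together. Over the 17 alternatives the call was lost in 2 for Penk, 4 for Gng4, 3 for Grk3, 5 for Kcnj6 and 6 for Adcy8. It was lost in 6 for Rgs5, 7 for Rgs10 and 0 for Rgs8. The cause of these shifts was not tested. The mean Oprl1 to Oprm1 level ratio was 4.24 per deposited width and 0.217 per union of exons. The deposited width and exon union are 249699 and 8037 bases for Oprm1, and 5970 and 3753 bases for Oprl1. Reversed values were Gnai1 at -0.031 with pan-neuronal scaling, Anpep, which ranged from -0.13 (without CreER-positive replicate 3) to 0.32 with 1 library left out and was -0.11 without both libraries, and the Oprd1 to Oprk1 ratio, which ranged from -0.066 to 0.097 with 1 library left out. The other ratio differences ranged from 0.19 to 0.41 (Oprm1 to Oprd1), 0.18 to 0.49 (Oprm1 to Oprk1), -0.40 to -0.09 (Oprm1 to Oprl1), -0.64 to -0.45 (Oprd1 to Oprl1) and -0.65 to -0.55 (Oprk1 to Oprl1). No paired analysis was possible because the replicate numbers were given in accession order and nothing in the labels pairs the mice. The 95% intervals of Oprm1, Oprd1 and Oprk1 included 0 with these 3 mice a group.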
